A study of Mus musculus with 6 samples.

Results

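The acute-phase protein genes described here are Saa1, Saa2, Saa3, Lcn2, Orm1, Orm2, Hp, Cp, C3 and Chil1, 10 genes of the 56980 in a matrix of gene expression in mouse lung. They were picked by symbol from a list drawn up when the values of these same libraries were already known. Their levels and their differences between the groups are therefore given as a description, without a test. All 10 were found in the matrix, and all 10 passed the filter on low values, a mean of at least 1 TPM (a gene's share of all transcripts, corrected for transcript length) over the libraries. The 6 libraries came from lungs of NSG mice taken 5 weeks after human tumour cells were injected into a mammary fat pad. In the Ctrl group (n = 3) the cells were MDA-MB-231, a triple-negative breast cancer line, and in the DPP3_KO group (n = 3) they were MDA-MB-231 cells with DPP3, the gene of dipeptidyl peptidase 3, knocked out. All the mice thus carried a human tumour, and no lung of a tumour-free mouse was analysed here. NSG mice have no mature lymphocytes or natural killer cells, but keep neutrophils, monocytes and macrophages. The knockout was made in the human cells, so no mouse gene checks the labels, and the labels do not give the age or sex of the mice, whether the knockout was 1 clone, or whether each library was 1 mouse.

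Acute-phase proteins are plasma and tissue proteins whose synthesis rises in inflammation, mainly under interleukin-6, interleukin-1 and tumour necrosis factor acting through STAT3, C/EBP and NF-kappa B transcription factors. The liver makes most of them, but lung epithelium, fibroblasts, macrophages and neutrophils make some of their own. In mice, Saa3 is the serum amyloid A gene best known for expression outside the liver, and serum amyloid A3 has been linked to the recruitment of myeloid cells to the lung before metastasis.

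The tissue was lung in every library, with surfactant gene Sftpc at 14519 to 38794 TPM. Each library has the same TPM sum, so depth is unknown, and a gene that takes a large share lowers all others. The median log2 change over the 15650 genes that passed the filter was -0.60 with the TPM as deposited. It was -0.02 once each library had been divided by its median ratio to the other libraries, called scaling below, and both values are given. The neutrophil marker list differed between libraries of the same group. Its 14 genes summed to 4104, 7244 and 53269 TPM in Ctrl replicates 1 to 3 and to 1685, 35022 and 15609 TPM in DPP3_KO replicates 1 to 3. The third Ctrl title, which carries 232 in place of 231, belongs to the library with the highest sum, and DPP3_KO replicate 1 had the lowest. In bulk tissue, fewer cells of a type and less RNA per cell cannot be told apart.

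Most of the acute-phase genes were high in Ctrl replicate 3 and in DPP3_KO replicates 2 and 3 and lower in the other 3 libraries. For 7 of the 10 genes (Saa1, Saa2, Saa3, Lcn2, Hp, Cp and C3) these were the 3 highest libraries as deposited, an order held by 3.8% of all tested genes. After scaling it was again 7 of 10, with Chil1 in and Hp out, against 10.5% of all tested genes. The order was noticed in these genes, so the shares describe them and test nothing. Only the orosomucoid genes Orm1 and Orm2 were higher in every DPP3_KO library than in every Ctrl library as deposited, as were 2.73% of all tested genes, while 0 of the 10 were lower without overlap, as were 51.1% of all genes. Hp joined Orm1 and Orm2 after scaling, where 15.1% of all genes were higher and 15% lower without overlap. In the fit over all genes, 2 of the 10 genes, Orm1 and Orm2, were higher at adjusted p under 0.05 as deposited, as were 1.38% of all genes, and 0 were lower (also at an unadjusted p under 0.05; limma), as were 34% of all genes. After scaling 0 passed, where 1.96% of all genes were higher, 0.88% lower and 2.84% either (limma; 4 of the 10 were higher and 0 lower at an unadjusted p under 0.05). These counts rest on the contrast that was known when the genes were picked, and nothing is read from them.

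**Figure D1:**
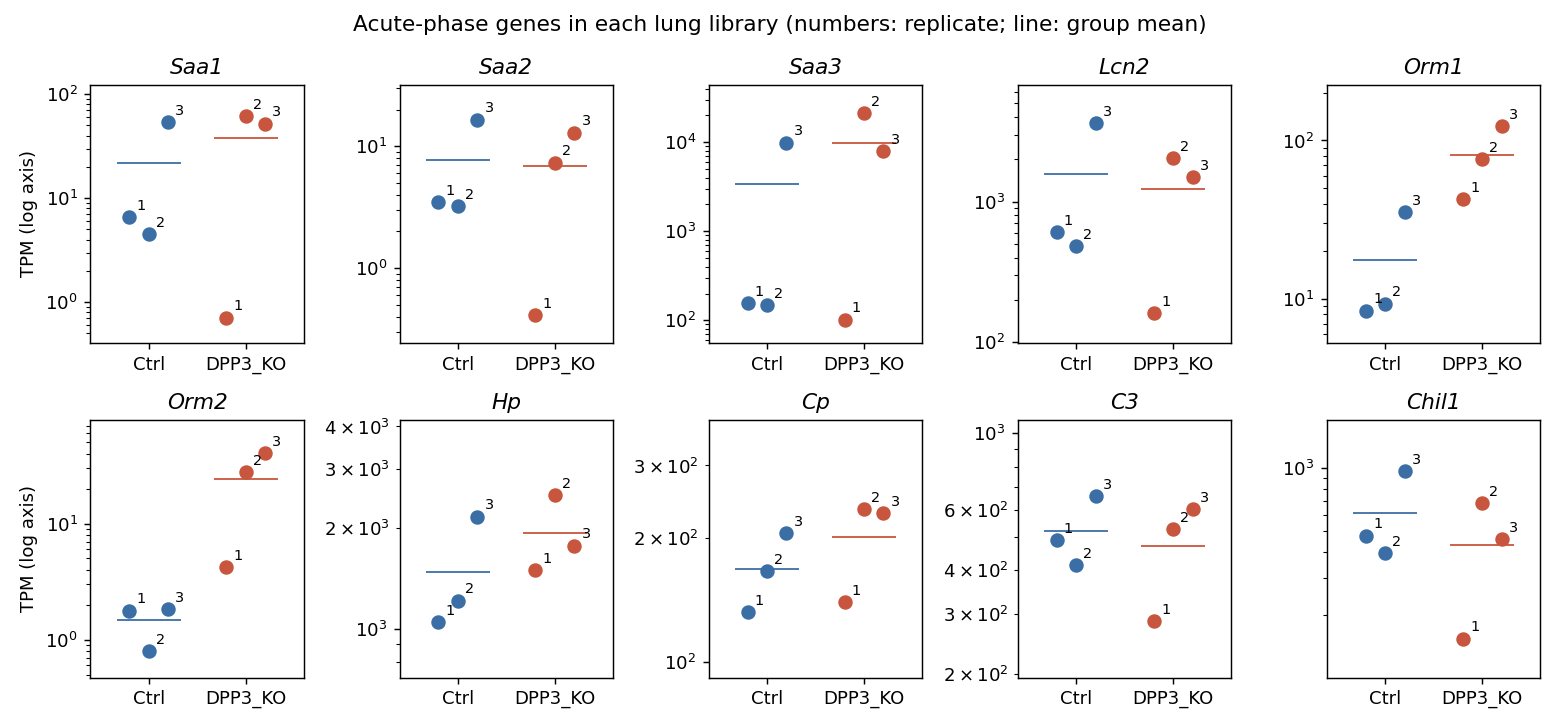
TPM of the 10 acute-phase genes on a log axis, 1 panel a gene, with 1 point per library (numbers give the replicate) and a line at each group's mean. Ctrl replicate 3 lies far above the other Ctrl libraries and DPP3_KO replicate 1 far below the other DPP3_KO libraries for Saa1, Saa2, Saa3 and Lcn2, while Orm1 and Orm2 separate the groups.

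The levels of the 10 genes spanned several orders of magnitude per length. Haptoglobin, Hp, was the most abundant of them in Ctrl replicates 1 and 2 and DPP3_KO replicate 1, and Saa3 was the most abundant in the other 3 libraries. Lcn2, C3 and Chil1 ranked above Cp in every library, and Saa1, Saa2, Orm1 and Orm2 filled the last 4 places in every library. The 10 genes together made up 0.293%, 0.284% and 1.76% of all TPM in Ctrl replicates 1 to 3 and 0.239%, 2.72% and 1.27% in DPP3_KO replicates 1 to 3. Saa3 alone was 4.27% to 5.32% of that sum in the 3 libraries where Hp led and 56.2% to 77.3% in the 3 where Saa3 led.

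Saa3 (ENSMUSG00000040026) had the widest range of all 10 genes. It stood at 156, 148 and 9904 TPM in Ctrl replicates 1 to 3, and at 102, 21047 and 7931 TPM in DPP3_KO replicates 1 to 3. As deposited, the highest library was thus 206-fold above the lowest, both of them from DPP3_KO lungs, and the groups overlapped. After scaling, Ctrl replicate 2 was the lowest, at 110 against 126 in DPP3_KO replicate 1, and the groups again overlapped. The group means were 3403 ± 5630.4 TPM (SD, n = 3) in Ctrl and 9693 ± 10583 in DPP3_KO, with SDs above the means. The log2 change, on the log2(TPM + 1) scale, was 2.07 ± 2.30 (SE) as deposited and 2.73 ± 2.40 after scaling. As deposited it was 4.08 without Ctrl replicate 3, 4.39 without DPP3_KO replicate 1 and 0.56 without DPP3_KO replicate 2.

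Saa1 (ENSMUSG00000074115) and Saa2 (ENSMUSG00000057465), which encode the circulating serum amyloid A proteins carried on high-density lipoprotein, were far lower than Saa3 and followed the same libraries. Saa1 stood at 6.63, 4.53 and 53.6 TPM in Ctrl and at 0.71, 61.3 and 52.1 TPM in DPP3_KO. Saa2 stood at 3.5, 3.21 and 16.6 TPM in Ctrl and at 0.41, 7.34 and 13.0 TPM in DPP3_KO. In both genes DPP3_KO replicate 1 was the lowest library of all and the groups overlapped. The log2 changes were 0.43 ± 1.48 (SE) for Saa1 and -0.34 ± 0.91 for Saa2 as deposited, and 0.99 and 0.17 after scaling, so that the sign for Saa2 turned with the scaling. The transcripts of the pair, of the lengths the deposited table gives (609 and 652 bases), were identical at 94.4% of their aligned bases, and 9.11% of the 50-base windows of the Saa1 transcript occurred unchanged in Saa2. Reads can therefore be shared between them, and the split between the pair is uncertain. Their sum was 10.1, 7.74 and 70.2 TPM in Ctrl and 1.12, 68.7 and 65.1 TPM in DPP3_KO, with a log2 change of 0.17 as deposited and 0.75 after scaling. Saa3 shared 76.0% of aligned bases with Saa1, and 1.61% of the Saa1 windows.

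Saa3 was also set against its family within each library, a comparison that no scaling of TPM can move. It was 23.5, 32.7 and 185 times the level of Saa1 in Ctrl replicates 1 to 3, and 144, 343 and 152 times in DPP3_KO replicates 1 to 3. DPP3_KO replicate 1, as deposited the library with the least Saa3 and the least Saa1, thus lay with the high libraries in this ratio. Its Saa1 level was only 0.71 TPM, so the ratio of 144 is imprecise.

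The 250 bases before the annotated start of these 3 genes are shown because the genes were high in the same libraries and because the Saa1 and Saa2 promoters are near copies of each other. They are from RefSeq, build GRCm38.p6, an earlier build than the GRCm39 of the expression files, and run 5′ to 3′ on the gene's strand. Capitals mark matches on either strand to the C/EBP pattern TTNNGNAA and the interleukin-6 response patterns CTGGGAA or CTGGAAA.
Saa3 (chr7:46715677-46715926, minus strand): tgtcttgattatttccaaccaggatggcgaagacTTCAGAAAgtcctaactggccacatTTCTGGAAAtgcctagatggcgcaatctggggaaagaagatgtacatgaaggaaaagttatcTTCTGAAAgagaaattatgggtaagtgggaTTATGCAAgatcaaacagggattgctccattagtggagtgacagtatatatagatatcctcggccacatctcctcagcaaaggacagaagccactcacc
Saa1 (chr7:46742981-46743230, minus strand): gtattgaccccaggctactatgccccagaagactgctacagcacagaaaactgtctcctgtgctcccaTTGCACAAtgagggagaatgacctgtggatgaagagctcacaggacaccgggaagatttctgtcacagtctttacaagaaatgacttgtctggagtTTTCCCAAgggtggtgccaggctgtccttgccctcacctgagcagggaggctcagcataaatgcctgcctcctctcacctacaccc
Saa2 (chr7:46751583-46751832, plus strand): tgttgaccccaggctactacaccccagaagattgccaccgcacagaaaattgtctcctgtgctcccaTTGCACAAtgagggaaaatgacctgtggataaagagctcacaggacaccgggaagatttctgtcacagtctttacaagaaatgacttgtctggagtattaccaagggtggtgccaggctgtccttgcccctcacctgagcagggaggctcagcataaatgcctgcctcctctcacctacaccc

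The Saa1 and Saa2 windows were identical at 95.6% of aligned bases. Saa3 held 4 matches to the C/EBP pattern, one of which overlaps its single match to CTGGAAA, Saa1 held 2 and Saa2 held 1. Of the 10 genes, 8 had a promoter in the table (Orm1 and Hp were not matched), in 9 windows, and every window held a C/EBP match, as did 36.8% of all 32851 promoter windows of the same length. Matches to CTGGGAA or CTGGAAA were found in Saa3 and Chil1, and in 15.0% of all windows. No window of the 8 genes held the STAT pattern TTCNNNGAA (7.02% of all windows) or the NF-kappa B motif (2.82%). These matches describe letters in the windows and show no binding.

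Lcn2 (ENSMUSG00000026822) encodes lipocalin 2, which starves bacteria of iron by binding their siderophores and is stored in neutrophil granules as well as made by epithelium. It stood at 607, 481 and 3617 TPM in Ctrl and at 162, 2050.4 and 1497 TPM in DPP3_KO. Ctrl replicate 3 was the highest library and DPP3_KO replicate 1 the lowest, and the groups overlapped. The log2 change was -0.36 ± 1.10 (SE) as deposited and 0.30 ± 1.17 after scaling. It turned to 0.55 without Ctrl replicate 3 and to 0.78 without DPP3_KO replicate 1 as deposited.

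Chil1 (ENSMUSG00000064246) encodes a chitin-binding protein without chitinase activity, known as YKL-40 or BRP-39, made by macrophages, neutrophils and epithelium. It stood at 477, 395 and 972 TPM in Ctrl and at 154, 679.8 and 459 TPM in DPP3_KO. The groups overlapped, and the highest library was 6.32-fold above the lowest. The log2 change was -0.64 ± 0.58 (SE) as deposited and 0.02 ± 0.61 after scaling.

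Most neutrophil markers shared the library order of Saa3 and Lcn2, which Chil1 had only after scaling. Of the 14 neutrophil markers, 11 had the same 3 highest libraries as Saa3, and 13 were above 0 in all libraries, with Fcnb, a gene of immature neutrophils, at 0 in DPP3_KO replicates 1 and 3. The granule alarmin gene S100a8 stood at 965, 1766 and 17949 TPM in Ctrl and at 394, 10614 and 4826 TPM in DPP3_KO. Lcn2 per S100a8 ranged over 3.26-fold between libraries (0.193 to 0.629), against the 22.4-fold range of Lcn2 itself. Chil1 per S100a8 ranged over 9.14-fold, more than Chil1 itself. Saa3 per S100a8 was 0.162, 0.084 and 0.552 in Ctrl and 0.259, 1.98 and 1.64 in DPP3_KO, a range of 23.6-fold in which the groups still overlapped. The part of neutrophil number in these levels was not tested.

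**Figure D2:**
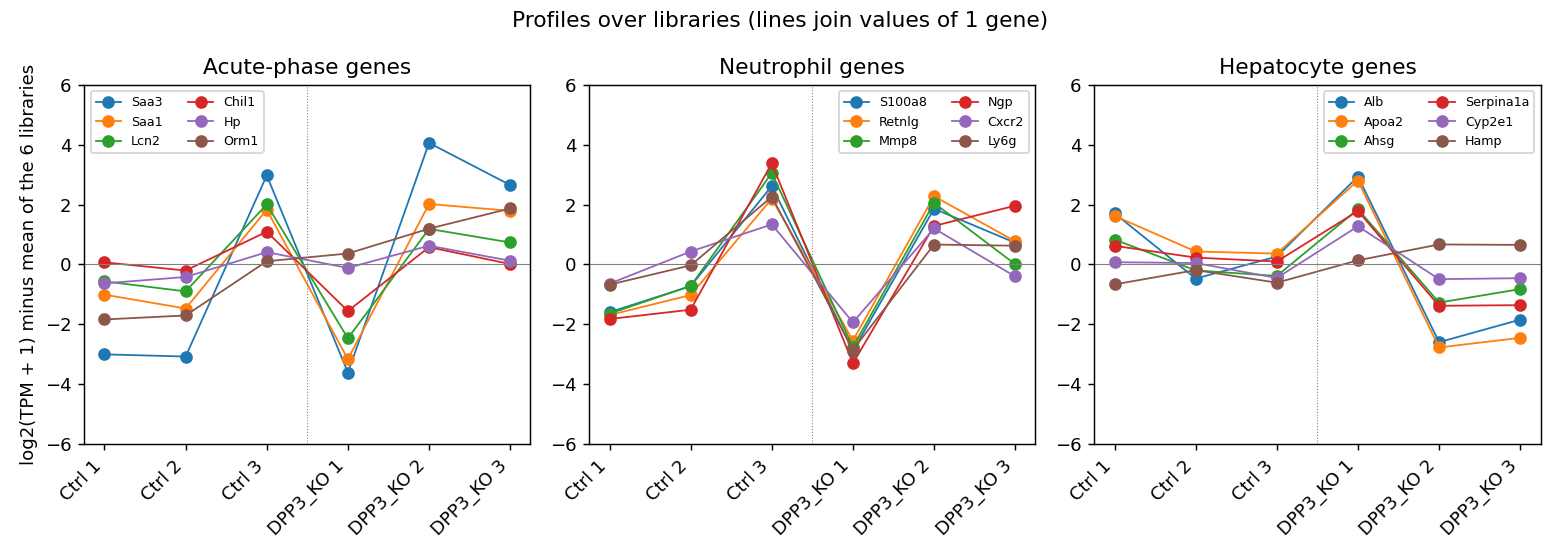
log2(TPM + 1) of single genes minus the gene's mean over the 6 libraries, for 6 acute-phase genes, 6 neutrophil markers and 6 hepatocyte markers, by library. Saa3, Saa1 and Lcn2 and the neutrophil genes peak in Ctrl replicate 3 or DPP3_KO replicate 2 and are lowest in DPP3_KO replicate 1, whereas the hepatocyte genes other than Hamp are highest in DPP3_KO replicate 1.

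Orm1 (ENSMUSG00000039196) and Orm2 (ENSMUSG00000061540) encode orosomucoid, or alpha-1-acid glycoprotein, a lipocalin-fold plasma carrier of drugs and lipids. Orm1 stood at 8.45, 9.36 and 35.4 TPM in Ctrl replicates 1 to 3 and at 42.5, 76.3 and 123 TPM in DPP3_KO replicates 1 to 3. Orm2 stood at 1.78, 0.8 and 1.83 TPM in Ctrl and at 4.21, 27.8 and 40.4 TPM in DPP3_KO. In both genes every DPP3_KO library lay above every Ctrl library, though for Orm1 the gap between Ctrl replicate 3 and DPP3_KO replicate 1 was small. The groups' mean levels differed 4.54-fold for Orm1 and 16.4-fold for Orm2. The Ctrl mean of Orm2 was only 1.47 TPM, so its fold is imprecise.

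The log2 changes were 2.29 ± 0.59 (SE) for Orm1 and 2.93 ± 0.72 for Orm2 as deposited, and 2.92 ± 0.65 and 3.41 ± 0.77 after scaling. With 1 library left out at a time, Orm1 ranged from 1.93 to 3.57 and Orm2 from 2.34 to 4.38 over both scalings. The transcripts of the pair are 775 bases each and identical at 91.0% of bases, with 20.4% of 50-base windows shared, so the split between them is uncertain. Their sum was 10.2, 10.2 and 37.2 TPM in Ctrl and 46.7, 104 and 163 TPM in DPP3_KO, again without overlap, with a log2 change of 2.47 as deposited and 3.11 after scaling. The third gene of the cluster, Orm3, which was not among the 10, lay between 0.6 and 1.26 TPM in all libraries.

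The orosomucoid genes did not share the library order of Saa3. DPP3_KO replicate 1, as deposited the lowest library for Saa3, Saa1, Saa2, Lcn2, C3 and Chil1, held more Orm1 than any Ctrl library. Orm1 per Saa3 was 0.417 in that library, and 0.0036 to 0.063 in the other 5. The promoter of Orm2 is shown for comparison with those of the serum amyloid A genes, again as the 250 bases before its start in GRCm38.p6 from RefSeq, with 2 matches to the C/EBP pattern in capitals.
Orm2 (chr4:63362199-63362448, plus strand): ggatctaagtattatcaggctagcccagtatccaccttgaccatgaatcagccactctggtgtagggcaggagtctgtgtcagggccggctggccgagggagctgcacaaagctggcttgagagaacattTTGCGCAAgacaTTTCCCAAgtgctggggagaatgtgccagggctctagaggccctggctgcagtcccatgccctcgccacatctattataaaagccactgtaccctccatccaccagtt

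Club cell, ciliated cell and heart muscle markers were also higher in the DPP3_KO libraries. The 5 club cell markers summed to 74377 to 105800 TPM in Ctrl and 229499 to 297110 in DPP3_KO, and the 5 heart muscle markers to 354 to 684 TPM and 1192 to 1426 TPM. The 4 ciliated cell markers summed to 140.5 to 214 TPM in Ctrl and 404 to 468 TPM in DPP3_KO. None of the 3 sums overlapped between the groups, and all markers of the 3 lists were above 0 in all 6 libraries. Their part in the orosomucoid levels was not tested.

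Hp, Cp and C3 varied less than the other genes. Hp (ENSMUSG00000031722), whose product haptoglobin captures free haemoglobin, stood at 1049, 1214 and 2158 TPM in Ctrl and at 1499, 2507 and 1769.6 TPM in DPP3_KO, a 2.39-fold range in which the groups overlapped. Its log2 change was 0.42 ± 0.33 (SE) as deposited and 1.09 ± 0.36 after scaling, where the groups no longer overlapped. Cp (ENSMUSG00000003617), the gene of the copper ferroxidase ceruloplasmin, stood at 132, 166 and 206 TPM in Ctrl and at 140.1, 235 and 229.5 TPM in DPP3_KO. This was the narrowest range of the 10 genes, 1.78-fold, with a log2 change of 0.25 ± 0.27 as deposited and 0.91 ± 0.30 after scaling. C3 (ENSMUSG00000024164), the central component of complement, stood at 490.1, 414 and 656 TPM in Ctrl and at 285, 528 and 602 TPM in DPP3_KO. Its log2 change of -0.18 ± 0.32 as deposited became 0.48 ± 0.38 after scaling, so no direction is given for C3.

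**Figure D3:**
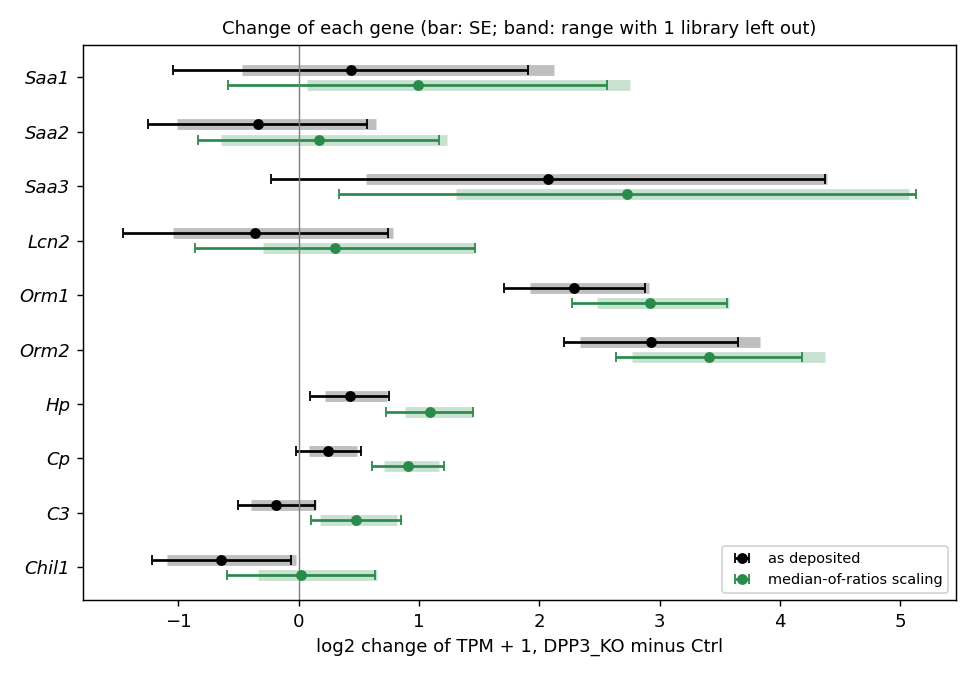
log2 change of TPM + 1 between DPP3_KO and Ctrl for each of the 10 genes, as deposited (black) and after scaling (green), with SE bars and a band for the range when 1 library is left out. The bands of Orm1 and Orm2 start at 1.93 and 2.34, whereas the bands of Saa2 and Lcn2 cross 0 in both scalings.

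Markers of liver cells did not follow the serum amyloid A genes. Albumin, Alb, stood at 27.3, 5.24 and 9.39 TPM in Ctrl and at 65.2, 0.43 and 1.41 TPM in DPP3_KO. As deposited it was thus highest where Saa1, Saa2 and Saa3 were lowest. Of the 8 hepatocyte markers, 0 had the same 3 highest libraries as Saa3, an order held by 3.8% of all tested genes. The list summed to 62.9 to 106 TPM in Ctrl and 86.0 to 231 TPM in DPP3_KO, with 6 of its genes above 0 in all libraries and Apoa2 and Fgb at 0 in DPP3_KO replicate 2. Hamp carried most of the sum in DPP3_KO replicates 2 and 3 (78.0 of 86.0 and 77.1 of 87.3 TPM). It also made up a large part in Ctrl replicates 2 and 3 (42.6 of 74.6 and 31.6 of 62.9 TPM). Of the 8 adipocyte markers, 0 shared that order either, and they summed to 61.7 to 94.8 TPM in Ctrl and 85.8 to 147 TPM in DPP3_KO, with Lep at 0 in all but 1 library. The fibroblast (373.6 to 987 TPM) and mesothelial (50.6 to 244 TPM) lists also had 0 members in that order. With so small a share over all genes, counts of 0 in lists this short say little.

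The genes with the library profile nearest to that of Saa3 were Stfa3, Cstdc6, Cxcl13, Cstdc5 and Stfa2. Likeness was measured as the root mean square difference of centred log2(TPM + 1) values over the 6 libraries, which was 0.70 for Stfa3 and 0.93 for Stfa2, against a median of 3.40 for all tested genes. Stfa2, Stfa3, Cstdc5 and Cstdc6 belong to a cluster of closely similar stefin A genes of cysteine protease inhibitors, whose reads can be shared, and Cxcl13 is a chemokine gene. Stfa3 stood at 2.19, 2.08 and 583 TPM in Ctrl and at 6.08, 559 and 325 TPM in DPP3_KO. Among the other 9 acute-phase genes Saa1 was the nearest to Saa3, at 1.47. The genes nearest to Lcn2 were Lst1 (0.18), Spn (0.20), Pou2f2 (0.25), Mmp9 (0.28) and Clec4e (0.29), against a median of 1.55 for all tested genes. Mmp9 is a neutrophil gelatinase gene, and Clec4e encodes a pattern receptor of myeloid cells. Saa2 (0.46) and Saa1 (0.69) were the nearest of the acute-phase genes to Lcn2. With 6 libraries and 15650 genes some profiles lie close for any gene, and the values are a description.

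The other genes of the acute-phase response, from 6 lists, were tested in the fit over all genes. Tested were 28 liver-type genes, 27 inducers, 18 receptors, 20 complement genes, 16 iron, copper and haem genes and 4 chitinase genes. Some genes stood in more than 1 list. In all, 25 of the genes fell and 1 rose in DPP3_KO as deposited, and 3 fell and 1 rose after scaling, each gene being counted once. Over all genes, 34% fell and 1.38% rose as deposited, and 0.88% fell and 1.96% rose after scaling. The count of 25 became 8 without Ctrl replicate 1, 0 without Ctrl replicate 2 and 9 without DPP3_KO replicate 3. The count of 3 after scaling became 2 without Ctrl replicate 3 or DPP3_KO replicate 1 and 0 without any of the other 4 libraries. As deposited, the inducer, receptor, complement and chitinase lists held 0 genes higher also at an unadjusted p under 0.05 (limma). After scaling, 1 receptor and 1 complement gene were higher and 1 gene of iron, copper and haem handling was lower at that level. All adjusted p-values below are from limma with Benjamini-Hochberg adjustment over all tested genes.

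Of 31 inducers of the response (cytokines, receptors, kinases and transcription factors), 27 were tested, 10 fell, 0 rose and 17 did not pass as deposited, with a median log2 change of -0.76. Over all genes 34% fell as deposited, with a median of -0.60. After scaling 0 of the inducers fell and 0 rose (limma; 3 lower and 1 higher at an unadjusted p under 0.05), with a median of -0.16. Jak1, a kinase of the interleukin-6 receptor, fell from 84.7 ± 14.6 to 29.3 ± 7.08 TPM (SD, n = 3; log2 change -1.52 ± 0.23 SE, adjusted p = 0.0145), and stood at -0.87 after scaling (adjusted p = 0.0736). Stat3, the transcription factor below it, fell by 0.91 on the log2 scale (adjusted p = 0.0193), and the signalling receptor gene Il6st by 1.19 (adjusted p = 0.0214). The interleukin-1 receptor gene Il1r1 fell by 1.00 (adjusted p = 0.0173). After scaling the log2 changes of Stat3, Il6st and Il1r1 were -0.25, -0.53 and -0.40, and none of the 3 passed.

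Of the 27 tested inducers, 6 had the same 3 highest libraries as Saa3 (Tnf, Socs3, Pim1, Nfkbia, Nfkbiz and Bcl3), an order held by 3.8% of all tested genes. These names were chosen after their values were seen, and Tnf was the only cytokine gene among them as deposited. After scaling, the cytokine genes Il1b and Osm and the receptor gene Il17ra also had this order, then held by 10.5% of all tested genes. Il1b stood at 207, 192 and 213 TPM in Ctrl and at 37.3, 355 and 130 TPM in DPP3_KO. Tnf stood at 1.5, 1.32 and 10.1 TPM in Ctrl and at 0.64, 15.7 and 5.07 TPM in DPP3_KO. Socs3, the feedback inhibitor of STAT3 signalling, stood at 52.0, 77.7 and 143 TPM in Ctrl and at 31.6, 168 and 88.7 TPM in DPP3_KO. Il6 itself was low, at 2.33, 1.4 and 1.01 TPM in Ctrl and at 0.72, 10.3 and 1.3 TPM in DPP3_KO, and was raised in DPP3_KO replicate 2 alone.

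Of 20 receptors of these proteins, 18 were tested, 7 fell and 0 rose as deposited, with a median of -0.88. After scaling 2 still fell, Cd36 and Itgax. Among all tested genes 34% fell as deposited, with a median of -0.60, and 0.88% fell after scaling. Itgax, a subunit of a receptor for cleaved C3 and abundant in alveolar macrophages, fell from 35.4 ± 18.6 to 2.46 ± 0.095 TPM (log2 change -3.24 ± 0.41 SE, adjusted p = 0.0145), and by 2.67 after scaling (adjusted p = 0.0238). Cd36, a scavenger receptor gene of endothelium and macrophages, fell from 806 ± 91.8 to 192 ± 61.1 TPM (-2.11, adjusted p = 0.0144), and by 1.45 after scaling (adjusted p = 0.0326). The high-density lipoprotein receptor gene Scarb1 fell by 1.25 (adjusted p = 0.0145) and Slc22a17, which encodes a lipocalin 2 receptor, by 1.34 (adjusted p = 0.0155), and neither passed after scaling. The alveolar macrophage markers summed to 1189 to 2884 TPM in Ctrl and 224 to 1726 TPM in DPP3_KO, which overlap. The mean log2(TPM + 1) of the same 8 markers was 6.04, 5.80 and 6.10 in Ctrl and 2.89, 4.25 and 3.69 in DPP3_KO, lower in every DPP3_KO library. The capillary markers summed to 1701.5 to 2410.2 TPM in Ctrl and 498 to 1011 TPM in DPP3_KO, without overlap as deposited. Singly, 51.1% of all tested genes were lower without overlap as deposited, and the marker values given here were not scaled. All markers of both lists were above 0 in every library. Their part in the falls of Itgax and Cd36 was not tested. Of the 18 tested receptors, 4 had the 3 highest libraries of Saa3 as deposited (Fpr1, Fpr2, C3ar1 and Itgam), an order held by 3.8% of all tested genes. Scarb1, Cd36, Tlr2, Tlr4 and Ager did not have it as deposited. Fpr2, which encodes a formyl peptide receptor that binds serum amyloid A, did not pass and was named after its values were seen. It stood at 21.2, 26.3 and 406 TPM in Ctrl and 13.7, 307 and 177 TPM in DPP3_KO.

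Of 20 complement genes around C3, 3 fell and 0 rose as deposited, with a median of -0.30. Among all tested genes 34% fell as deposited, with a median of -0.60, and 0.88% fell after scaling, with a median of -0.02. After scaling 1 of the 20 complement genes fell, and their median was 0.25. That gene was Hc, which encodes complement C5 and carries a small deletion in the NOD strain from which NSG mice derive, so that they lack the C5 protein. Hc fell from 73.7 ± 23.6 to 15.3 ± 2.05 TPM (-2.15 ± 0.27 SE, adjusted p = 0.0145), and by 1.51 after scaling (adjusted p = 0.0448). The membrane inhibitor gene Cr1l fell by 0.97 (adjusted p = 0.0217) and did not pass after scaling. C1s1 stood at -0.57 and did not pass (adjusted p = 0.0835). Of the 20 complement genes, 4 had the 3 highest libraries of Saa3 as deposited (C1qa, Cfb, Cfp and C3ar1), an order held by 3.8% of all tested genes. Cfb, the alternative pathway partner of C3, stood at 81.8, 80.9 and 208 TPM in Ctrl and at 37.3, 210.4 and 326 TPM in DPP3_KO.

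Of 16 genes of iron, copper and haem handling, 1 rose and 4 fell as deposited, and 1 rose and 0 fell after scaling, with medians of -0.18 and 0.41. The shares of all tested genes were 1.38% higher and 34% lower as deposited, and 1.96% higher and 0.88% lower after scaling. Their medians were -0.60 and -0.02. Hamp, the gene of the iron hormone hepcidin, rose from 34.8 ± 6.75 to 69.6 ± 13.8 TPM (log2 change 0.98 ± 0.22 SE, adjusted p = 0.0216), and by 1.62 after scaling (adjusted p = 0.0225). As deposited it did not pass without Ctrl replicate 1, without Ctrl replicate 2 or without DPP3_KO replicate 3, and after scaling it passed only without DPP3_KO replicate 1. The heart muscle markers, at 354 to 684 TPM in Ctrl and 1192 to 1426 TPM in DPP3_KO, were higher in the same libraries, and heart muscle is a known site of Hamp expression. Their part was not tested. The copper transporter genes Atp7a and Atp7b fell by 1.83 (adjusted p = 0.0247) and 0.99 (adjusted p = 0.0278), and Heph, a ferroxidase related to ceruloplasmin, fell by 1.11 (adjusted p = 0.0353), and none of the 3 passed after scaling.

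Of 35 other acute-phase genes made by liver, 28 were tested. Only 1, Hamp, rose, and 0 fell as deposited (limma; 2 lower at an unadjusted p under 0.05), with a median of -0.20, and 1 rose and 0 fell after scaling. The shares of all tested genes were 1.38% higher and 34% lower as deposited, and 1.96% higher and 0.88% lower after scaling. Serpina1b (-1.06, adjusted p = 0.0599), Itih4 (-1.25, adjusted p = 0.0762) and Serping1 (-0.69, adjusted p = 0.140) did not pass, and the serpin genes have close copies that can share reads. The list thus held genes of both orders: Alb was highest in DPP3_KO replicate 1, whereas Orm3, Serpina3n, Cd14, Mt1 and Mt2 were the 5 with the 3 highest libraries of Saa3. The metallothionein gene Mt2 stood at 372, 259 and 895 TPM in Ctrl and at 358, 1628 and 1251 TPM in DPP3_KO.

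Of the 8 other genes of the chitinase family, 4 were tested, and 2 fell as deposited and 0 after scaling (limma; 2 lower and 0 higher at an unadjusted p under 0.05). Among all tested genes 34% fell as deposited and 0.88% after scaling, and counts from 4 genes say little beside these shares. Chid1 fell by 1.16 (adjusted p = 0.0197) and Ctbs by 1.13 (adjusted p = 0.0242). Chia1, the gene of the acidic chitinase, stood at -0.65 and did not pass (adjusted p = 0.0759). Chil3, the macrophage gene also known as Ym1, stood at -1.66 and did not pass either (adjusted p = 0.149). Chil3 stood at 956, 755 and 2347 TPM in Ctrl and at 135, 1404 and 282 TPM in DPP3_KO, which again put DPP3_KO replicate 1 lowest. Chil1 per Chil3 was 0.414 to 0.523 in the Ctrl libraries and 0.484 to 1.63 in the DPP3_KO libraries.

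**Figure D4:**
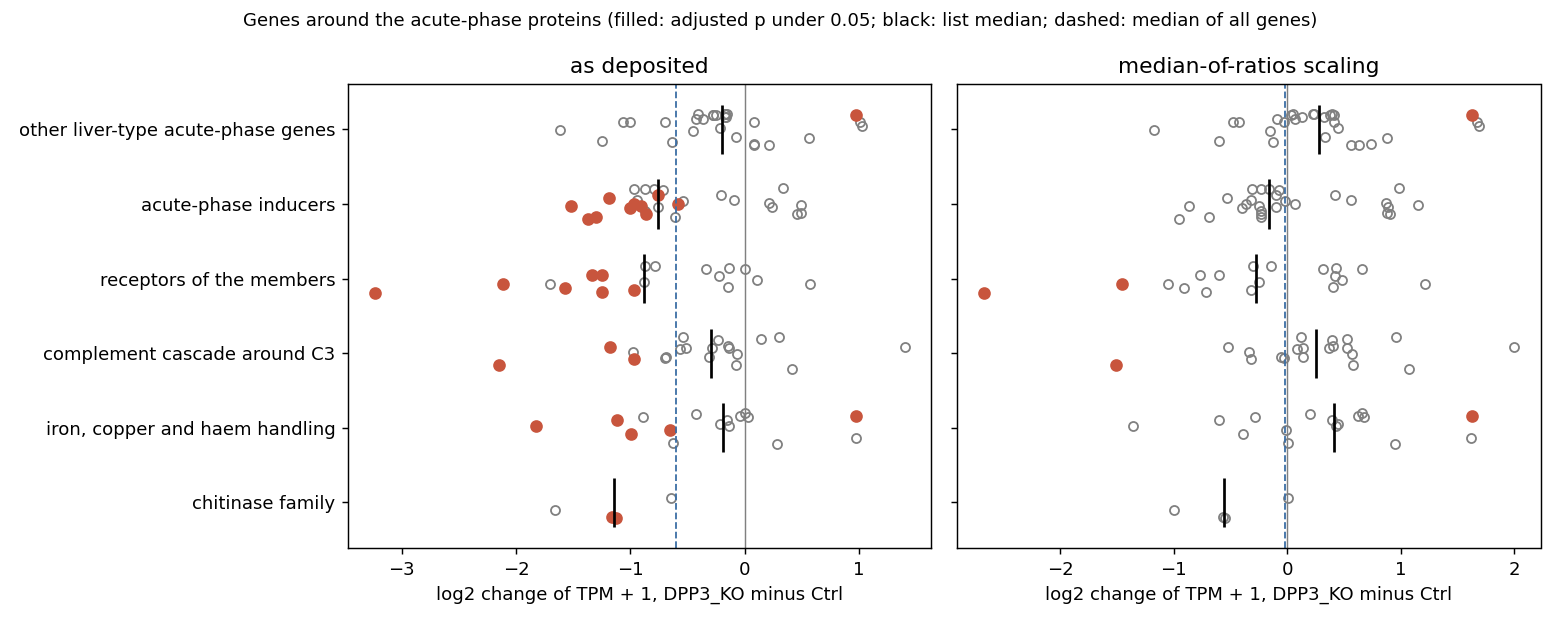
log2 change of TPM + 1 between DPP3_KO and Ctrl for the tested genes of 6 lists around the acute-phase proteins, as deposited (left) and after scaling (right), with filled points for genes past the threshold, a black line at each list's median and a dashed line at the median of all genes. The filled points fall from 25 lower genes and Hamp to 3 lower genes and Hamp, each gene being counted once over the lists.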

How the data were processed

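Total RNA of lung was sequenced from 6 TruSeq libraries, per the labels. The deposited values are TPM per gene, made by the authors, in 1 matrix with Ensembl identifiers, symbols and gene lengths. The submitters' processing notes name HISAT2, StringTie, RSEM and the build GRCm39, without role or version. How reads of the human tumour cells were treated, the strand setting and the annotation release are not stated in the sources used here. Human reads of related genes could add to mouse values. Each column has the same sum, so no depth, counting interval or floor is given.

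Groups and replicate numbers came from the titles, and all value columns matched a sample. Since the labels do not say that libraries are separate mice, p-values measure the spread between these libraries. Genes averaging at least 1 TPM (15650) entered, as log2(TPM + 1), a fit with limma 3.58.1 in R 4.3.3 (eBayes with an intensity trend, two-sided, Benjamini-Hochberg adjustment over all tested genes, threshold 0.05). An exact permutation test of 3 against 3 cannot go below p = 0.1 and was not used. Median-of-ratios scaling divided each library by the median ratio of its genes to their geometric means. The fit was also run on simulated data with independent noise in each gene. Those data had no shift over most genes and no library differences shared between genes, so the run says nothing of either.

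The genes and lists were chosen with earlier results of these data known. Named were the 10 genes, the 4 genes of each list with the smallest p, and the 5 nearest profiles to Saa3 and Lcn2, leaving out unnamed gene models. Further genes were named after their values were seen. One gene that the rule names is not reported here. Promoters were matched by symbol in RefSeq sequences of build GRCm38.p6, and transcripts came from GENCODE release M21 and were aligned with Biopython 1.88. A fold on this scale understates the change of low genes. Alternatives were pseudocounts of 0.1 and 5, median-of-ratios scaling, no filter, a filter at 5 TPM, quantile normalization, TPM without Scgb1a1, limma without trend, the replicate number as a block, and each library left out in turn.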

Additional observations from a re-analysis of the deposited data

How the results depend on the processing

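Pseudocounts of 0.1 and 5, a filter at 5 TPM, limma without trend and the replicate number as a block moved no count over all genes, the lists together or the 10 genes past 1.5 times, and no log2 change of the 10 genes past its SD. At the filter of 5 TPM, 1 gene of the liver-type list, Serpina1b, was also lower. Over all genes, 216 were higher as deposited, 327 after quantile normalization, 129 without Scgb1a1 and 67 with the block and median-of-ratios scaling together, an alternative chosen after the data were seen. The 5321 lower genes became 3093 with no filter, 137 with median-of-ratios scaling, 140.0 with quantile normalization, 353 without Scgb1a1 and 18 with block and scaling together. Leaving out 1 library gave 6 to 196 higher and 8 to 5049 lower genes over both scalings, with 6 higher and 85 lower as deposited without Ctrl replicate 2. Of the genes of the 6 lists, 25 were lower as deposited, 14 with no filter, 3 with median-of-ratios scaling, 3 with quantile normalization, 5 without Scgb1a1 and 0 with block and scaling together, where 0 were higher. Leaving out 1 library gave 0 to 1 higher and 0 to 29 lower. The number of the 10 genes called higher was 2 as deposited, 0 with no filter, median-of-ratios scaling, quantile normalization or TPM without Scgb1a1, 1 with block and scaling together, and 0 to 2 with 1 library left out (as deposited, 0 without Ctrl replicate 1 or 2 or DPP3_KO replicate 2 or 3). The cause was not tested.

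The log2 change was 1.09 for Hp, 0.91 for Cp and 0.48 for C3 with median-of-ratios scaling, with or without the block, and 0.69 for Cp with quantile normalization. With 1 library left out, over both scalings, the log2 change ran from -0.47 to 2.76 for Saa1, -1.01 to 1.23 for Saa2, 0.56 to 5.07 for Saa3, -1.05 to 1.46 for Lcn2, 1.93 to 3.57 for Orm1, 2.34 to 4.38 for Orm2, 2.07 to 3.73 for their sum, 0.22 to 1.45 for Hp, 0.086 to 1.16 for Cp, -0.39 to 0.82 for C3 and -1.09 to 0.65 for Chil1. The sign of Saa3, Orm1, Orm2, Hp and Cp was the same in all of these settings.

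It is not known whether the replicate numbers pair the samples. The deviations of same-numbered libraries from their group means correlated at 0.27, -0.21 and 0.15, and those of the other pairs at -0.48 to 0.41. With 3 libraries per group these correlations cannot decide it. With the replicate number as a block, 212 genes were higher and 4734 lower, 1 and 23 of the lists, and 2 of the 10. The groups are 3 libraries each, 1 library often decides a value, and no depth is known.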
